A study of Mus musculus with 8 samples.

Results

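The 43 genes described here encode collagen chains. They are all the rows of both deposited tables whose gene symbol reads Col, a type number, a and a chain number, 43 of 37282 gene symbols in all. Every member had a single row in each table. They were grouped into 8 fibrillar, 7 cartilage, 9 basement membrane, 6 FACIT (collagens with interrupted helices that sit on fibrils) and 4 transmembrane collagens, and 9 beaded filament and other collagens. The cartilage class was set by tissue. It holds collagens II and XI, which are fibrillar by structure, and collagen IX, which is a FACIT by structure. The fibrillar and FACIT classes are given without them. A low-count filter kept 40 members for testing. Col4a3, Col10a1 and Col28a1 did not pass it.

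The libraries came from whole dissected tracheae of E11.5 and E13.5 mouse embryos (embryonic days), from a control group and a WlsShhCre group at each stage, with 2 libraries in each of the 4 groups. WlsShhCre embryos, called mutants here, carry a deletion of Wls, the cargo receptor that Wnt ligands need for secretion. Cre from the Shh locus acts in the airway lining, an epithelium, and not in the mesenchyme around it, in which most collagen genes are expressed. The labels give no further allele, no genotype of the controls beyond the word control, and nothing on whether a library holds 1 embryo or a pool, so p-values measure only the spread between these libraries, which may be technical.

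Collagens are trimers of chains that carry long glycine-rich helical stretches. Fibrillar collagens give connective tissue its tensile strength, collagens II, IX and XI build the fibrils of cartilage, and collagen IV forms the sheet under epithelia and around vessels and muscle. In the embryonic trachea the ventral mesenchyme forms the cartilage rings and the dorsal mesenchyme forms the trachealis, a smooth muscle.

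Total estimated counts ranged from 9.898 to 18.48 M per library, the highest in the 2 E13.5 mutant libraries. Levels are given as CPM, the count after scaling for library size, and where values are joined by "against" with no group named, the controls come first. In CPM, Wls read 155 and 164 in control and 118 and 109 in mutant libraries at E11.5, then 168 and 158 in control and 73.9 and 71.7 in mutant libraries at E13.5, in the direction of the labels. The airway epithelial marker Nkx2-1 was present in all libraries, at 52.2 to 93.3 CPM. Some libraries stood apart in transcripts other than collagens. Xist, a transcript of female cells, read 1168 and 1847 CPM in controls and 846 and 526 CPM in mutants at E11.5, and 2673 and 1841 CPM in controls and 6.34 and 1224 CPM in mutants at E13.5. Ddx3y, a Y-linked gene, read 43.2 and 32.8 CPM in controls and 52.2 and 61.8 CPM in mutants at E11.5, and 19.8 and 48.2 CPM in controls and 106 and 66.8 CPM in mutants at E13.5, so that at each stage both mutants had less Xist and more Ddx3y than both controls. The summed level of 8 markers of intestinal epithelium was 20.4 to 35.2 CPM in 6 libraries and at most 2.34 CPM in the 2 E13.5 mutants, with Sis and Apoa4 at 0 in both of these. The part of these differences in the results on collagen genes was not tested.

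The bases just upstream of a gene's start hold much of its basal promoter. In the RefSeq table for GRCm38.p6, 35 of the 43 members matched, with 38 windows of 250 bases upstream of a start. Col1a1, Col2a1, Col4a3, Col5a2, Col9a3, Col12a1, Col14a1 and Col22a1 had no window, so no motif was searched for them. The submitters' processing notes name the build mm9, so these coordinates belong to the reference and not to the deposited files. The windows below are shown for members on which the results turn: 2 cartilage chains, the fibrillar chain Col3a1, the transmembrane chain Col23a1, and Col6a2 and Col8a1, whose genotype effects differed in sign between the stages. Capitals mark matches to 3 short motifs searched on both strands, the SOX core, AACAAT and on the other strand ATTGTT; the TCF/LEF core, CTTTGAT and on the other strand ATCAAAG; and the GC box, GGGCGG and on the other strand CCGCCC. The windows are chr1:24177360-24177609, plus strand, for Col9a1; chr17:34038888-34039137, plus strand, for Col11a2; chr1:45311288-45311537, plus strand, for Col3a1; chr11:51289670-51289919, plus strand, for Col23a1; chr10:76623631-76623880, minus strand, for Col6a2; and chr16:57754738-57754987, minus strand, for Col8a1. For Col9a1 and Col6a2, which have 2 starts each in the table, the outer start was used. Each is written 5′ to 3′ on the strand of its gene.
Col9a1: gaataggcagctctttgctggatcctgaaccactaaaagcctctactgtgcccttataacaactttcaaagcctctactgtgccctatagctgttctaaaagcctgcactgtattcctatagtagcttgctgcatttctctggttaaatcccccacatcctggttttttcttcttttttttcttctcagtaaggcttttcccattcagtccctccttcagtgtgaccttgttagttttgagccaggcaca
Col11a2: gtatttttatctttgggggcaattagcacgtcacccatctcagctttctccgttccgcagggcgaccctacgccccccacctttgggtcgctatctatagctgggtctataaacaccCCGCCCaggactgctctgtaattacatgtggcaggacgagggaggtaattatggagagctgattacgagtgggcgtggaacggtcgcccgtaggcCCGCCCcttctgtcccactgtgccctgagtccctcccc
Col3a1: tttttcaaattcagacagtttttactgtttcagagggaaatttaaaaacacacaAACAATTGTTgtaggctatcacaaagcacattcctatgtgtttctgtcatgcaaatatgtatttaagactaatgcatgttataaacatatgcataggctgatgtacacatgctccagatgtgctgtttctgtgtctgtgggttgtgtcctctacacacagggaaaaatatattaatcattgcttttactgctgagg
Col23a1: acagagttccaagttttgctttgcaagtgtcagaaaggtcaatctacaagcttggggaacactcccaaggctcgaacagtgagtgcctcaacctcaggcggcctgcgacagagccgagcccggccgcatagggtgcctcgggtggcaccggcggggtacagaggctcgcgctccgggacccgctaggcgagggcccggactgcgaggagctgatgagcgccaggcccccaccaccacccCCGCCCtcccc
Col6a2: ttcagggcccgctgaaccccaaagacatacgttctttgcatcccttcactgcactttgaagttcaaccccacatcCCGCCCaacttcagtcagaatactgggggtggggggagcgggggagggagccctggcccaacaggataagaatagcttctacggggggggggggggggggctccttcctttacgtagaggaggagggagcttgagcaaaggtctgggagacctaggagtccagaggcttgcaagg
Col8a1: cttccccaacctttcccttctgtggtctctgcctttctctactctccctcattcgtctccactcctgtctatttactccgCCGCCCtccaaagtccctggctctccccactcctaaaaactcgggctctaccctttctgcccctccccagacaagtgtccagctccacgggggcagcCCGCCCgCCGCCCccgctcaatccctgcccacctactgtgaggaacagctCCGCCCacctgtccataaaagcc
Over the member windows the GC box was in 22 of 38, or 57.9%, against 32.7% of all 32817 windows of the table. The SOX core was in 1 window (2.63%, against 9.42% of all), that of Col3a1, where matches on both strands overlap. The TCF/LEF core was also in 1 window (against 3.21% of all), that of Col9a2. Member windows had a median GC content of 59.0% against 52.4% over all windows. Among those printed, Col3a1 was lowest at 35.2% and Col23a1 highest at 66.0%. A match describes the letters only.

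To compare members with each other, levels were read per length of gene model, as the deposited RPKM (reads per kilobase of gene model, scaled to library size). Col1a1 and Col1a2, which together make collagen I, and Col3a1, which makes collagen III of distensible tissues, held the 3 highest mean RPKM among the members in every group. At E11.5 they lay close together, with group means of 270 to 315 RPKM. At E13.5 the controls had group means of 1015 RPKM for Col1a1, 787 for Col1a2 and 784 for Col3a1, and the mutants 792, 600 and 636. The 3 genes together made up 57.7% to 58.8% of the summed collagen RPKM in the E11.5 libraries, and 59.6% to 67.0% in the E13.5 libraries.

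Next in order at E11.5 came the collagen IV chain Col4a1, Col2a1 and the basement membrane collagen Col18a1, with control means of 81.9, 80.3 and 65.1 RPKM. In the 2 control libraries Col4a1 read 79.2 and 84.6 and Col2a1 read 74.2 and 86.4 RPKM, so these neighbours did not differ beyond their spread. At E13.5 the collagen VI chains Col6a1 and Col6a2 had moved to this place, at 135 and 133 RPKM in controls and 186 and 214 in mutants. At the low end, Col4a3, Col10a1 and Col28a1 stayed under 0.23 RPKM in every library, and Col10a1, the collagen of hypertrophic cartilage, was listed at 0 in 1 E13.5 control. Counts of Col10a1 were 0 to 4 in 7 libraries and 12 in E13.5 mutant replicate 2.

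**Figure D1:**
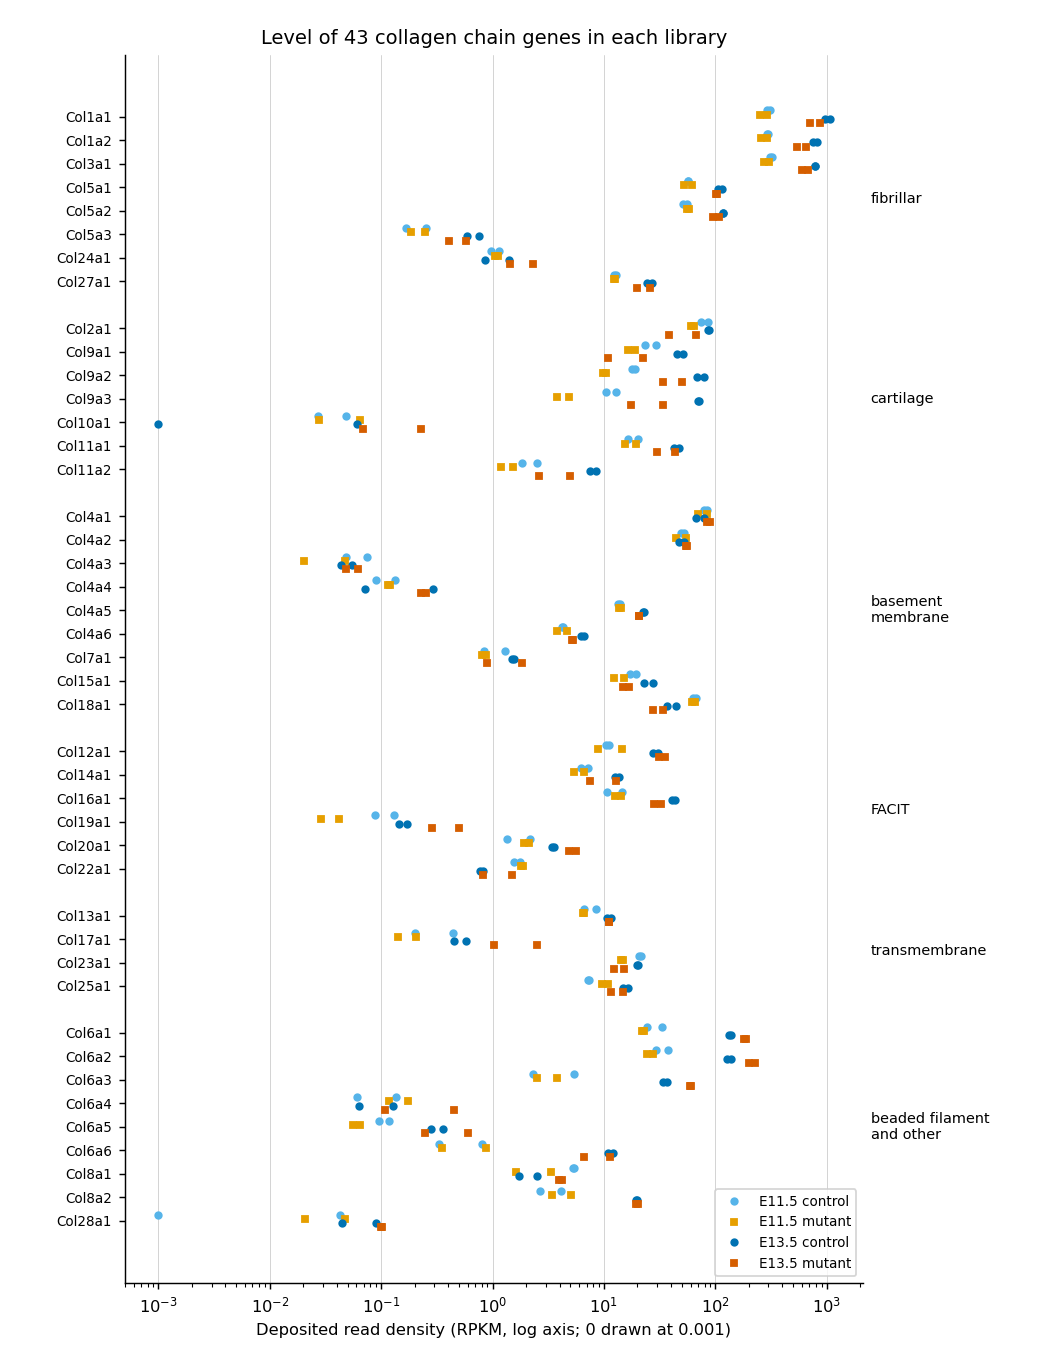
Deposited RPKM (log axis, values of 0 drawn at 0.001) of each of the 43 collagen genes in each of the 8 libraries, by class; circles are controls and squares are mutants. The 3 genes Col1a1, Col1a2 and Col3a1 lie highest at both stages, from 250 to 1063 RPKM, and the collagen VI chains Col6a1, Col6a2 and Col6a3 lie far to the right of their E11.5 values at E13.5.

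Collagens took 0.743% to 0.874% of all counts at E11.5 and 1.67% to 2.11% at E13.5. Within a stage the mutants lay lower: 0.843% and 0.743% against 0.874% and 0.848% in controls at E11.5, and 1.67% and 1.83% against 1.98% and 2.11% at E13.5. The groups did not overlap at either stage. The make-up of the collagen RPKM differed as well. At E13.5 beaded filament and other collagens made up 8.78% and 8.69% of it in controls and 15.2% and 15.0% in mutants, and cartilage collagens made up 8.61% and 8.60% in controls against 7.13% and 3.89% in mutants.

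The genotype comparison asks which collagen genes differ in the tracheal wall when Wnt secretion from the epithelium is lost. At E11.5, 1 of 40 tested members passed edgeR's quasi-likelihood test with Benjamini-Hochberg adjustment over all genes, the transmembrane chain Col23a1, which was lower. Over all 14901 genes tested, 0.289% were called lower and 0.0738% higher. At E13.5, 9 of 40 passed, 6 of them lower and 3 higher, where 5.81% of all genes were called lower and 5.97% higher. The 6 that fell were Col1a2, Col3a1, Col5a2, Col4a6, Col15a1 and Col23a1, and the 3 that rose were Col6a2, Col19a1 and Col20a1. The median log2 fold change over the members was -0.10 at E11.5 and -0.18 at E13.5, against medians over all genes tested that rounded to 0 at both stages. In whole tissue, fewer cells of a type and less RNA per cell cannot be told apart. Where a member missed the threshold, tools and fits named as calling it are some of the alternatives run and do not replace this result. A fit without 1 library leaves its group with a single library, whose spread is then taken from the other groups.

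**Figure D2:**
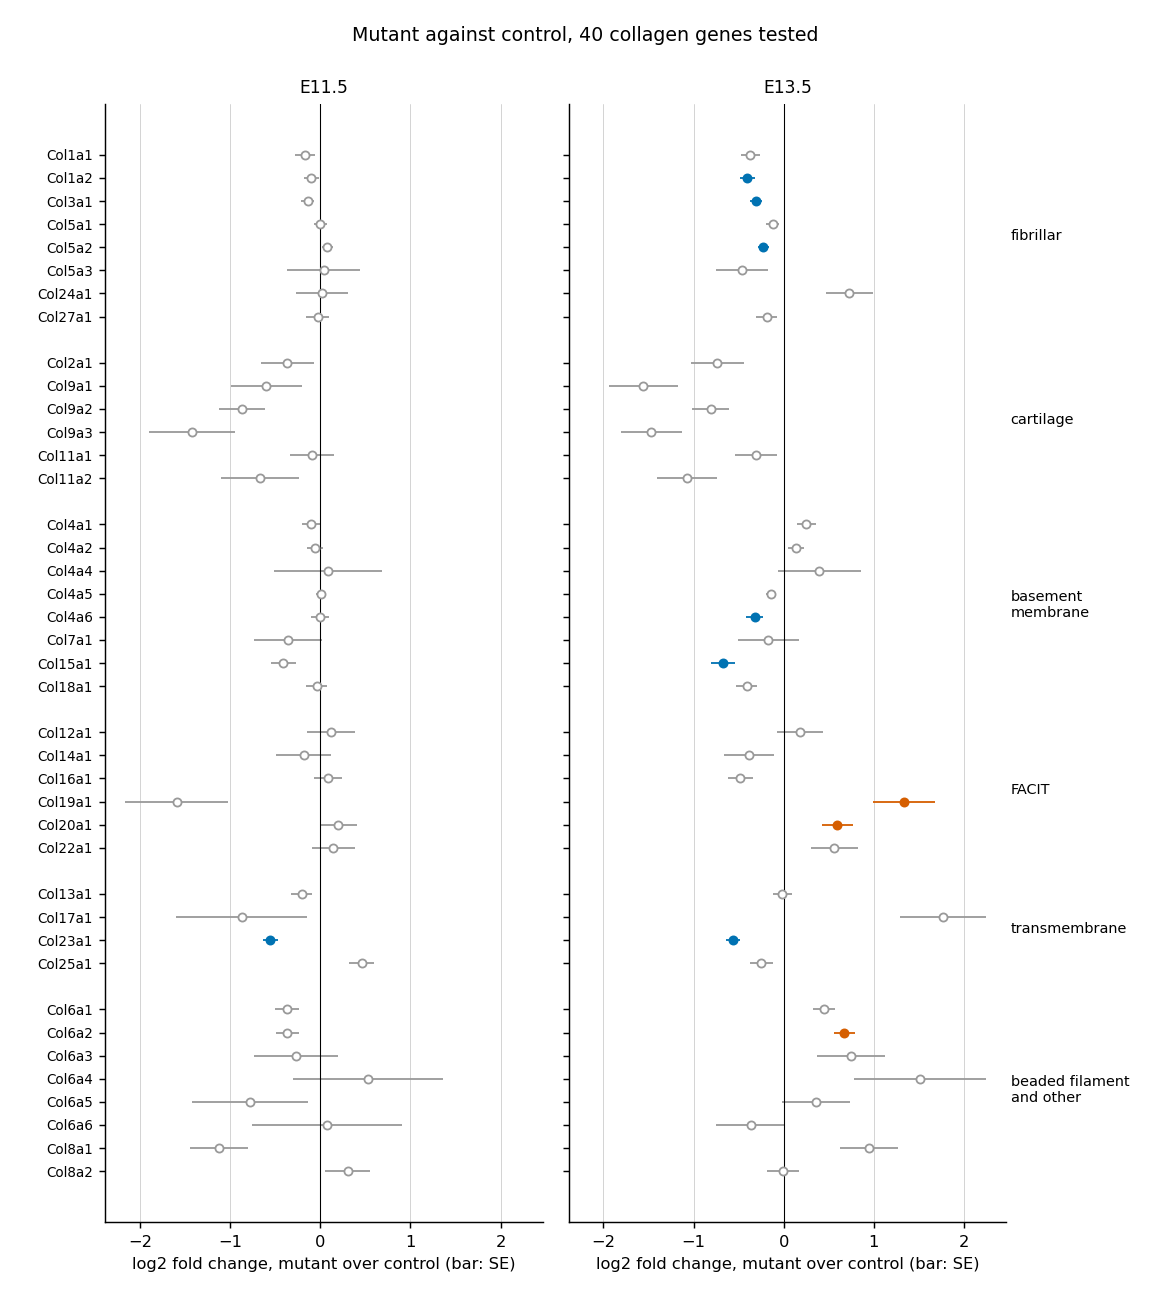
Log2 fold change of mutant over control at E11.5 (left) and E13.5 (right) for the 40 tested collagen genes by class, from edgeR; bars are standard errors, blue and orange filled points are members called lower and higher, and open points did not pass. At E13.5 all 6 cartilage genes lie below 0, from -1.56 to -0.31, with wide errors, and 6 of 8 beaded filament and other collagens lie above 0.

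Among the fibrillar collagens 0 of 8 passed at E11.5 in edgeR, and 0 had an unadjusted p under 0.05 (7.54% of all genes), with 0 called by DESeq2 or limma-voom. At E13.5 3 of 8 fell (5.81% of all genes), 0 rose (5.97% of all genes) and 5 did not pass, with a median of -0.27. Col1a2 stood at 3826 and 4213 CPM in E13.5 controls and at 2787 and 3296 CPM in the mutants. Both mutant libraries were below both controls. The log2 fold change was -0.40 (SE 0.09, adjusted p = 0.0125), which is 1.32-fold lower, but adjusted p = 0.0807 without control replicate 2 and 0.121 on the 4 libraries of this stage alone. Col3a1 stood at 4348 and 4309 CPM in controls and 3287 and 3695 CPM in mutants, again without overlap (-0.31, SE 0.07, adjusted p = 0.00785). The call did not hold when control replicate 1 (0.0789), control replicate 2 (0.0536) or mutant replicate 1 (0.0864) of E13.5 was left out.

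Col5a2, a chain of collagen V, which starts collagen I fibrils, was at 769 and 777 CPM in E13.5 controls and 624 and 700 CPM in the mutants (-0.22, SE 0.06, adjusted p = 0.0361). The difference was small and the call did not hold without E13.5 control replicate 1 (0.152), control replicate 2 (0.151) or mutant replicate 1 (0.315), or without either E11.5 control (0.0566 and 0.057). Its partner Col5a1 was at 884 and 952 against 838 and 847 CPM (-0.12, SE 0.07, adjusted p = 0.328). Col1a1, the other chain of collagen I, was at 4499 and 4972 CPM in controls and 3305 and 4031 CPM in mutants. These groups did not overlap either. Its value of -0.37 (SE 0.11, adjusted p = 0.0709) missed the threshold, as it did with DESeq2 (0.0804), on the 4 libraries of this stage alone (0.246), without mutant replicate 1 (0.175) and without control replicate 2 (0.223). It was called by limma-voom (0.0318) and without mutant replicate 2 (0.00236), the mutant with the higher level. Of the other fibrillar chains, the minor collagen V chain Col5a3 had -0.46 (adjusted p = 0.369), Col27a1 had -0.19 (adjusted p = 0.398) and Col24a1 had 0.73 (adjusted p = 0.12). The 6 fibroblast and tendon markers summed to 1133 and 931 CPM in E13.5 controls and to 643 and 886 CPM in the mutants. Of these 6, 2 rose (Tnmd by 1.84 and Fmod by 1.048) and 0 fell, while DESeq2 and limma-voom each called 1 lower. Tnmd was rare, at 0.843 and 1.03 CPM in E13.5 controls and 2.85 and 3.92 CPM in the mutants. Its call was lost with DESeq2 (0.123) and without E13.5 control replicate 1. The lower sum in the mutants came largely from the matrix protein gene Postn, at 489 and 393 CPM in controls and 192 and 202 CPM in mutants (-1.16, SE 0.34, adjusted p = 0.13), which was named after its values were seen. Their part in the values of the fibrillar collagens was not tested.

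All 6 tested cartilage collagens lay below 0 at both stages, yet 0 of 6 passed in edgeR at either stage. At E11.5 2 had an unadjusted p under 0.05 (7.54% of all genes), DESeq2 called 2 lower (0.43% of all genes) and limma-voom 0 (0.174% of all genes), and in 5 of 6 both mutants lay below both controls, as in 17.9% of all genes. At E13.5 4 had an unadjusted p under 0.05 (24% of all genes), DESeq2 called 4 lower (4.32% of all genes) and limma-voom 5 (5.95% of all genes), and again in 5 of 6 both mutants lay below both controls, as in 27.2% of all genes. The median log2 fold change was -0.63 at E11.5 and -0.94 at E13.5.

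Collagen IX sits on the surface of collagen II fibrils, and the lowest value of the class was that of a collagen IX chain at each stage, Col9a3 at E11.5 and Col9a1 at E13.5. Col9a3 was at 36.9 and 30.1 CPM in E11.5 controls and 10.8 and 14.0 CPM in the mutants. At E13.5 it was at 199 and 200.5 CPM in controls and 95.2 and 49.0 CPM in mutants. At each stage the mutants were far below the controls, by 2.68-fold at E11.5 (-1.42, SE 0.48, adjusted p = 0.61) and 2.76-fold at E13.5 (-1.47, SE 0.34, adjusted p = 0.0792). The E11.5 value was called by DESeq2 (0.0351), on the 4 libraries of that stage alone (2.44e-04) and without either E13.5 mutant library (1.5e-04 and 2.29e-04). The reference annotation places 6.07% of the exon bases of Col9a3 over those of Tcfl5 on the other strand, and the kit did not mark strand.

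Col9a1 was at 98.0 and 123 CPM in E11.5 controls and 67.8 and 78.7 CPM in mutants, and at E13.5 at 176 and 200.1 CPM in controls and 85.7 and 41.7 CPM in mutants. The groups did not overlap at either stage. The fitted log2 value was -0.60 (SE 0.39, adjusted p = 0.878) at E11.5 and -1.56 (SE 0.38, adjusted p = 0.0889) at E13.5. Col9a2 at E11.5 was at 52.3 and 50.5 against 27.2 and 29.0 CPM, and it was at 184 and 215 against 137 and 90.5 CPM at E13.5. Replicates of Col9a2 differed by less than the groups at E11.5, and its values were -0.87 (SE 0.25, adjusted p = 0.484) and -0.81 (SE 0.21, adjusted p = 0.083). Its E11.5 value was called by DESeq2 (0.046) and on the 4 libraries of that stage alone (1.59e-04), but not by limma-voom (0.347).

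Col2a1, the chain of collagen II and the main collagen of cartilage, was at 385 and 453 CPM in E11.5 controls and 334 and 316 CPM in the mutants (-0.37, SE 0.30, adjusted p = 0.919). This value passed on the 4 E11.5 libraries alone (0.0406), but was not called by DESeq2 or by limma-voom (0.843). At E13.5 Col2a1 was at 448 and 443 against 342 and 193 CPM (-0.74, SE 0.30, adjusted p = 0.242). The mutants again lay below the controls, while the 2 E13.5 mutants were far apart. Col11a2, a chain of collagen XI, which nucleates cartilage fibrils, was at 41.3 and 47.5 against 27.6 and 14.5 CPM at E13.5 (-1.07, SE 0.33, adjusted p = 0.125), and had -0.67 (adjusted p = 0.858) at E11.5. Col11a1, which is expressed well beyond cartilage, overlapped between the groups at both stages, with -0.09 (adjusted p = 0.989) at E11.5 and -0.31 (adjusted p = 0.523) at E13.5.

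The 2 E13.5 mutant libraries differed from each other in all 6 genes, with replicate 1 above replicate 2 by 1.47-fold (Col11a1) to 2.05-fold (Col9a1), while the 2 E13.5 controls were within 0.859-fold to 1.01-fold. Without mutant replicate 1 the adjusted p at E13.5 was 7.5e-07 for Col9a3, 2.66e-06 for Col9a2, 5.03e-04 for Col9a1, 7.01e-05 for Col11a2 and 2.04e-06 for Col2a1. Without mutant replicate 2, whose levels were the lower ones, the same 5 genes passed as well, with adjusted p from 7.91e-05 for Col9a3 to 0.0151 for Col11a2. In both of these fits the mutant group was a single library, so the difference between the 2 mutants no longer entered the spread. The same 5 genes missed the threshold on the 4 E13.5 libraries alone (0.261 to 0.44) and without either E13.5 control (0.188 to 0.525). In each of the 5 both mutant libraries lay below both controls. The 7 chondrocyte markers summed to 145 and 162 CPM in E11.5 controls, 119 and 110 CPM in the mutants, 192 and 177 CPM in E13.5 controls and 94.4 and 72.7 CPM in the mutants. At E13.5 2 of 5 tested markers fell, the chondrogenic transcription factor gene Sox9 (-1.16) and Hapln1 (-0.83, but adjusted p = 0.0725 without E13.5 control replicate 1), and 0 rose. Of the markers of mature cartilage, Matn1 was at 0 or under 0.1 CPM and Comp under 0.6 CPM in every library. Of 4 bone markers Bglap and Ibsp were at 0.713 CPM or less in every library and were not tested. Runx2, a transcription factor gene of cartilage and bone, was at 19.3 and 15.3 CPM in E11.5 controls and 6.92 and 5.38 CPM in the mutants (-1.50, adjusted p = 0.00476, but 0.0999 without control replicate 1 and 0.0579 without mutant replicate 2) and had -0.03 (adjusted p = 0.962) at E13.5. Sp7, the osterix gene of bone-forming cells, had -1.30 (adjusted p = 0.36) at E11.5 and fell at E13.5 (-2.16, adjusted p = 0.00453). The part of either list in the cartilage collagen values was not tested.

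**Figure D3:**
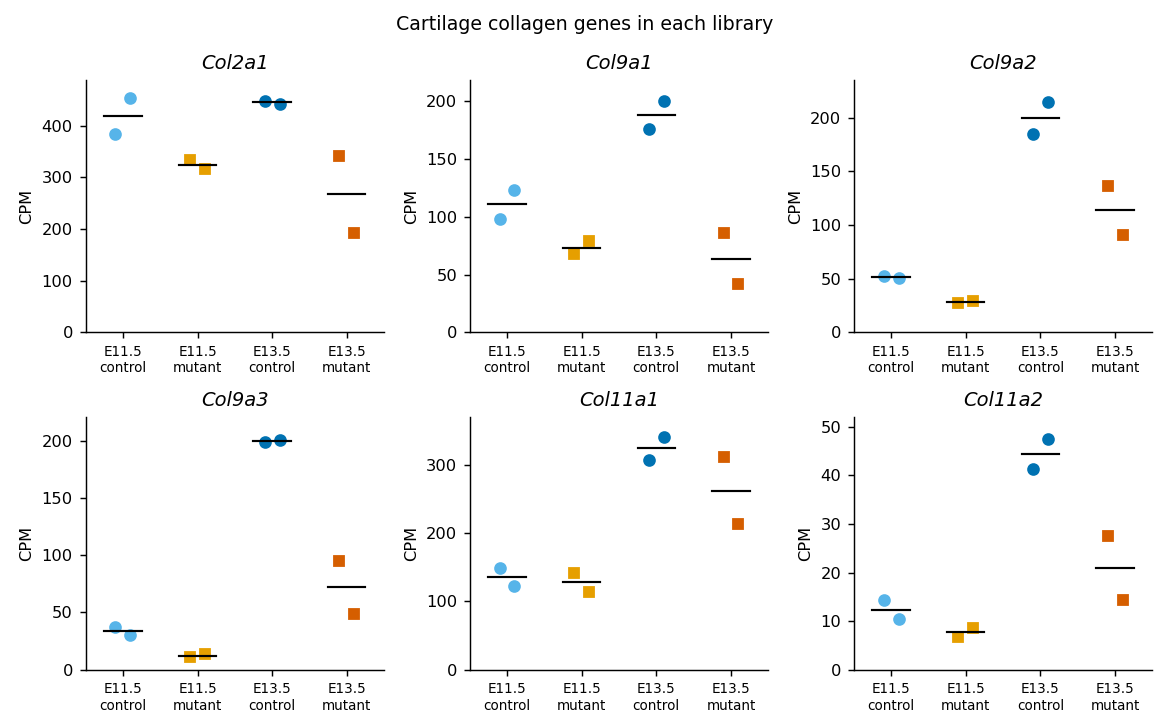
CPM of the 6 tested cartilage collagen genes in each library, with axes starting at 0; points are libraries and bars are group means. In all genes but Col11a1 both E13.5 mutants (342 and 193 CPM for Col2a1) lie below both controls (448 and 443 CPM), and the 2 mutants lie apart.

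Of the 8 tested basement membrane collagens 0 passed at E11.5 in edgeR, with 1 at an unadjusted p under 0.05 (7.54% of all genes) and 0 called by DESeq2 or limma-voom. At E13.5 2 fell (5.81% of all genes), 0 rose (5.97% of all genes) and 6 did not pass, with a median of -0.16. Col15a1, a basement membrane zone collagen found around vessels and muscle, was at 120 and 145 CPM in E13.5 controls and 89.6 and 76.6 CPM in the mutants. The mutants were below the controls, 1.59-fold by the fit (-0.67, SE 0.13, adjusted p = 0.0188, but 0.0503 without control replicate 2). At E11.5 it was at 103 and 93.0 against 81.5 and 66.7 CPM (-0.41, SE 0.14, adjusted p = 0.502), again without overlap.

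Col4a6, an X-linked collagen IV chain, was at 44.1 and 41.1 CPM in E13.5 controls and 34.8 and 33.4 CPM in the mutants (-0.32, SE 0.09, adjusted p = 0.0432). The groups did not overlap, but the call was lost without each of the E13.5 libraries, with 0.283 and 0.0914 for the controls and 0.0994 and 0.158 for the mutants, without each E11.5 control (0.0724 and 0.0718), with DESeq2 (0.21) and with a fit that was not robust (0.0613). Its X-linked neighbour and partner Col4a5 was at 147 and 145 against 133 and 132 CPM (-0.15, SE 0.05, adjusted p = 0.0995). The groups differed in Xist as given above, and its part in these values was not tested. The Col4a1 and Col4a2 pair, the chains of nearly every basement membrane, did not pass. Col4a1 was at 435 and 522 CPM in E13.5 controls and 587 and 551 CPM in the mutants (0.25, SE 0.10, adjusted p = 0.185), and Col4a2 had 0.14 (adjusted p = 0.419).

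Col18a1, whose end fragment is endostatin, was at 210 and 258 CPM in E13.5 controls and 160 and 193 CPM in the mutants. The groups did not overlap and the value of -0.41 (SE 0.12, adjusted p = 0.0659) passed with DESeq2 (7.82e-04) and limma-voom (0.0347). Col7a1, which makes anchoring fibrils under stratified epithelia, stood at -0.17 (adjusted p = 0.819) and Col4a4 at 0.39 (adjusted p = 0.671). The 6 endothelial markers summed to 396 and 445 CPM in E13.5 controls and 279 and 320.3 CPM in the mutants. Of these, 2 fell, Tek (-0.78) and Tie1 (-0.72), 0 rose and 4 did not pass, among them Emcn, whose groups overlapped. The 6 epithelial markers summed to 562 and 580 CPM in controls and 804 and 830 CPM in mutants, with 5 of 6 higher (Epcam, Krt18, Foxa2, Cdh1 and Nkx2-1, the last 2 lost without E13.5 control replicate 1 at 0.0525 and 0.0579, and Nkx2-1 also without E13.5 control replicate 2 at 0.114 and mutant replicate 1 at 0.0551). The part of either list in the basement membrane values was not tested.

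Among the 6 FACIT collagens 0 passed at E11.5 in edgeR, 1 had an unadjusted p under 0.05 (7.54% of all genes), and DESeq2 and limma-voom called 0. At E13.5 2 rose (5.97% of all genes), 0 fell (5.81% of all genes) and 4 did not pass, with a median of 0.37. Collagen IX, whose chains lay below 0 at E13.5, is given with the cartilage collagens and did not enter these counts or this median. Col19a1, a collagen of basement membrane zones that is linked to muscle differentiation, was rare. It was at 1.38 and 0.944 CPM in E11.5 controls and 0.305 and 0.441 CPM in mutants, and at 1.50 and 1.78 CPM in E13.5 controls and 5.26 and 2.98 CPM in the mutants. The groups did not overlap at either stage, but the order was opposite. Behind the E11.5 mutant values stood 3 and 5 counts. The log2 fold change was -1.59 (SE 0.57, adjusted p = 0.438) at E11.5 and 1.33 (SE 0.35, adjusted p = 0.0231) at E13.5, and the latter was lost without either E13.5 control (0.169 and 0.0863), without mutant replicate 1 (0.223), and with DESeq2 (0.197) or limma-voom (0.0614).

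Col20a1 was at 14.1 and 14.8 CPM in E13.5 controls and 23.5 and 20.2 CPM in the mutants (0.60, SE 0.17, adjusted p = 0.0372). Both mutants were above both controls. The call was lost without either E13.5 control (0.201 and 0.123), mutant replicate 1 (0.197) or either E11.5 mutant (0.0538 and 0.0549), and with DESeq2 (0.116) or a fit that was not robust (0.0571). Col16a1, which occurs beside fibrils in several tissues, was at 209 and 225 against 145 and 167 CPM at E13.5 (-0.48, SE 0.14, adjusted p = 0.0808). It passed with DESeq2 (7.54e-04) and limma-voom (0.0183). Col12a1 and Col14a1, which bind the surface of collagen I fibrils, had 0.18 (adjusted p = 0.743) and -0.39 (adjusted p = 0.492), and Col22a1, known from muscle-tendon junctions, had 0.56 (adjusted p = 0.217). The 6 skeletal muscle markers summed to 519 and 340 CPM in E13.5 controls and to 751 and 298 CPM in the mutants. Actc1 made up most of the control sums, at 433 and 246 CPM against 332 and 137 CPM in mutants (-0.53, adjusted p = 0.674). In 5 of 6 markers both mutants lay above both controls, as in 4067 of all 14901 genes, and the median was 1.60. In edgeR 0 of 6 were called and 4 had an unadjusted p under 0.05 (24% of all genes), while DESeq2 called 0 and limma-voom 1 higher. Col19a1 and Col22a1 were higher in mutant replicate 1 than in replicate 2, as those markers were, and the part of muscle RNA in their values was not tested.

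Col23a1, a transmembrane collagen, was the member whose call at E13.5 held whichever of the 8 libraries was left out and under the other alternatives run. It was at 119 and 123 CPM in E11.5 controls and 84.8 and 80.6 CPM in mutants, and at 114 and 112 CPM in E13.5 controls and 69.1 and 83.6 CPM in the mutants. At each stage both mutants lay below both controls. The log2 fold change was -0.55 (SE 0.08, adjusted p = 0.0079) at E11.5 and -0.57 (SE 0.08, adjusted p = 4.1e-04) at E13.5, which are 1.47-fold and 1.48-fold lower. The difference between these effects was -0.01 (SE 0.11, adjusted p = 0.977). The E11.5 call rested on all 4 libraries of that stage, since leaving out either control gave adjusted p = 0.0769 or 0.0775 and leaving out either mutant 0.056 or 0.0783.

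The 3 other transmembrane collagens did not pass at either stage. Col17a1, a component of the hemidesmosomes of basal epithelial cells, was at 2.43 and 3.09 CPM in E13.5 controls and 5.53 and 13.4 CPM in the mutants. Both mutants were higher and they differed widely (1.77, SE 0.48, adjusted p = 0.055). DESeq2 (0.00747) and a fit that was not robust (0.0258) called it. The 4 basal epithelial markers summed to 37.0 and 29.0 CPM in controls and 98.8 and 186 CPM in mutants, and 2 of 4, Krt5 and Krt15, rose while 0 fell, both lost without either E13.5 control (0.0539 to 0.135) and Krt15 also without either E11.5 mutant (0.054 in both). Mutant replicate 2 had the most of these markers and of Col17a1. Their part in the Col17a1 value was not tested. Col25a1, which motor axons need to enter muscle, was at 54.7 and 56.5 against 81.4 and 71.9 CPM at E11.5 (0.46, SE 0.14, adjusted p = 0.369) and had -0.25 (adjusted p = 0.286) at E13.5. Its E11.5 value passed when the 4 libraries of that stage were fitted alone (0.0131). The 6 neuron and glia markers summed to 104 and 101 CPM in E11.5 controls and 149 and 118 CPM in the mutants, with mutant replicate 1 highest, as for Col25a1. Of these, 0 of 6 were called at E11.5 in edgeR, 3 had an unadjusted p under 0.05 (7.54% of all genes), and DESeq2 and limma-voom called 0. In E13.5 mutant replicates 1 and 2 the order was opposite. There Col25a1 was at 111 and 84.7 CPM, while the markers summed to 122 and 151 CPM. Their part in the Col25a1 value was not tested. Col13a1, known from neuromuscular junctions, had -0.21 (adjusted p = 0.793) and -0.01 (adjusted p = 0.96).

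Collagen VI forms beaded filaments around cells of muscle and connective tissue, from 3 different chains. Of the 8 tested beaded filament and other collagens 0 passed at E11.5 in edgeR. There 3 had an unadjusted p under 0.05 (7.54% of all genes), DESeq2 called 1 lower (0.43% of all genes) and limma-voom called 0. At E13.5 1 rose (5.97% of all genes), 0 fell (5.81% of all genes) and 7 did not pass, with a median of 0.56. Col6a2 was at 142 and 111 CPM in E11.5 controls and 104 and 92.1 CPM in mutants, and at 473 and 514 CPM in E13.5 controls and 746 and 825 CPM in the mutants. The mutants were thus below the controls at E11.5 and above them at E13.5. The log2 fold change was -0.37 (SE 0.13, adjusted p = 0.502) at E11.5 and 0.67 (SE 0.12, adjusted p = 0.01) at E13.5, the latter 1.59-fold higher but with adjusted p = 0.072 without control replicate 1.

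Col6a1 went in step, at 519 and 548 CPM in E13.5 controls and 714 and 743 CPM in the mutants (0.45, SE 0.12, adjusted p = 0.0571). It just missed the threshold, and DESeq2 (0.0493), limma-voom (0.0145) and the 4 libraries of this stage alone (8.31e-04) called it. Col6a3, the usual partner of these chains, was at 364 and 399 CPM in controls and 643 and 637 CPM in mutants. Its groups were far apart, with replicates close together at this stage, but it varied more at E11.5 (58.4 and 25.3 CPM in controls), and the value of 0.75 (SE 0.38) had adjusted p = 0.344, against 1.16e-04 on the 4 E13.5 libraries alone and 0.0326 with limma-voom. Among the chains that can replace Col6a3, Col6a4 had 1.51 (SE 0.73, adjusted p = 0.256) over E13.5 libraries from 0.469 to 3.28 CPM, Col6a5 had 0.36 (adjusted p = 0.626) and Col6a6 had -0.37 (adjusted p = 0.652).

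Col8a1, a short-chain collagen of vessel walls and the corneal inner membrane, was at 27.6 and 27.4 CPM in E11.5 controls and 17.2 and 8.38 CPM in the mutants (-1.12, SE 0.32, adjusted p = 0.414). At E13.5 it was at 12.6 and 8.72 CPM in controls and 21.3 and 19.9 CPM in mutants (0.95, SE 0.32, adjusted p = 0.14). Its groups did not overlap and stood in opposite order at the 2 stages. DESeq2 called both (0.00671 and 0.00635). Its partner Col8a2 had 0.31 (adjusted p = 0.914) at E11.5 and -0.01 (adjusted p = 0.983) at E13.5. Within each stage the summed level of 6 smooth muscle markers stood in the same order of genotypes as Col8a1. It was 349 and 444 CPM in E11.5 controls and 314 and 251 CPM in the mutants. At E13.5 it was 968 and 1093 CPM in controls and 2112 and 2504 CPM in mutants. From E11.5 to E13.5 in controls this sum rose, whereas Col8a1 fell. Of the single markers Tagln overlapped between the genotypes at E11.5 and Des at E13.5. At E13.5 3 of 6 rose (Acta2, Myh11 and Cnn1) and 0 fell, and at E11.5 Cnn1 fell (-0.91). Acta2 lost its call without each E13.5 library in turn (0.091 to 0.179), Cnn1 lost its E13.5 call without control replicate 1 (0.0727), and its E11.5 call without each E11.5 library in turn (0.084 to 0.125). The part of smooth muscle in the values of the collagen VI and VIII chains was not tested.

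**Figure D4:**
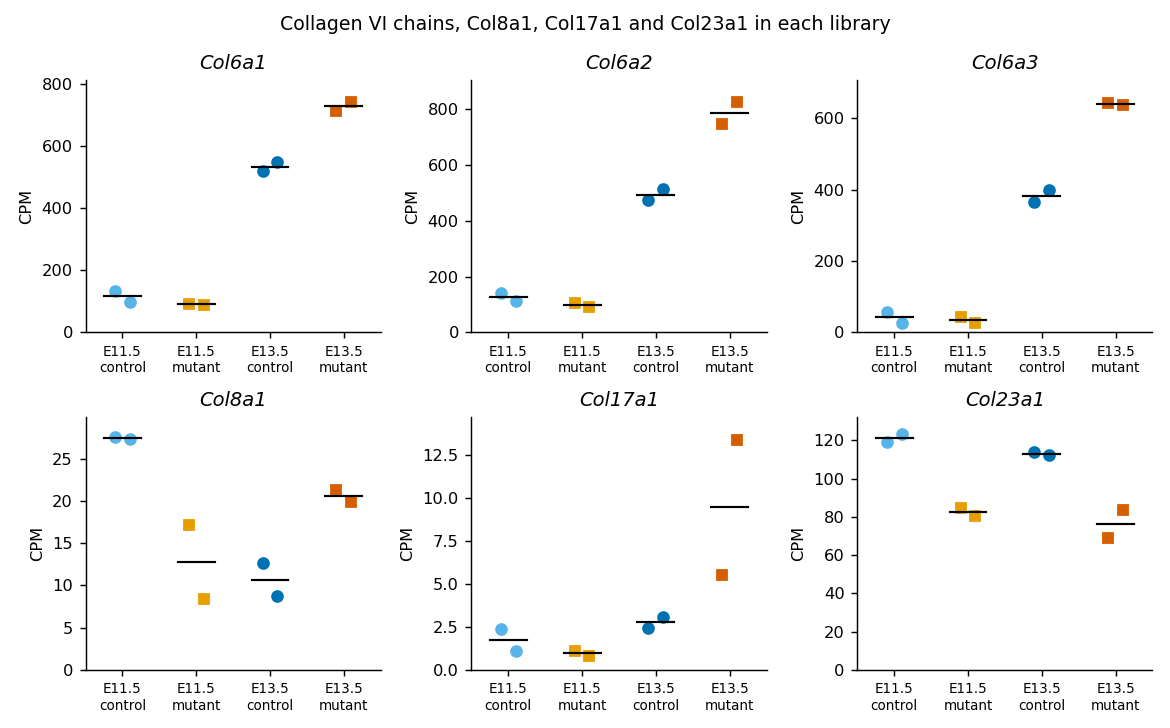
CPM of the collagen VI chains Col6a1, Col6a2 and Col6a3, of Col8a1, Col17a1 and Col23a1 in each library, with axes starting at 0; points are libraries and bars are group means. Col23a1 is lower in the mutants at both stages (at E11.5, 84.8 and 80.6 CPM in mutants and 119 and 123 CPM in controls), and Col6a2 and Col8a1 are below the controls at E11.5 and above them at E13.5.

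Whether the genotype effect itself differed between the stages was tested as an interaction in the same fit. It passed for 2 of 40 members, both with a larger value at E13.5, where 1.63% of all genes were called in this direction and 1.7% in the other. The median over the members was -0.09, against a median over all genes that rounded to 0. For Col6a2 the difference was 1.04 (SE 0.17, adjusted p = 0.0212) and for Col19a1 it was 2.92 (SE 0.66, adjusted p = 0.0279). Neither call held in every fit with a library left out. Col6a2 had 0.104 and 0.126 without E11.5 mutant replicates 1 and 2, and 0.0772 without E13.5 control replicate 1. Col19a1 passed in 1 of 8 such fits, with adjusted p up to 0.158, and missed the threshold with DESeq2 (0.0813) and limma-voom (0.114).

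Other members had differences of 1 log2 unit or more that did not pass. Col17a1 had 2.64 (SE 0.87, adjusted p = 0.193), Col8a1 had 2.07 (SE 0.46, adjusted p = 0.0871), Col6a5 had 1.14 (SE 0.74, adjusted p = 0.527) and Col6a3 had 1.02 (SE 0.60, adjusted p = 0.543). Of these Col8a1 passed with DESeq2 (5.82e-06) and limma-voom (0.0123), and Col17a1 with DESeq2 (0.0301) but not with limma-voom (0.365). Col6a1 stood at 0.82 (SE 0.18, adjusted p = 0.063) and passed with DESeq2 (0.0138) and limma-voom (0.0295). For the cartilage collagens the differences ranged from -0.96 (Col9a1) to 0.06 (Col9a2), with 0 of 6 passed in edgeR, 0 at an unadjusted p under 0.05 (15.9% of all genes) and 0 called by DESeq2 or limma-voom.

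Between E11.5 and E13.5 most collagen genes rose. In controls 25 of 40 tested members were higher at E13.5, 3 were lower and 12 did not pass, where 21.4% of all genes were called higher and 21% lower. In mutants 26 were higher, 2 lower and 12 not past the test, where 23.9% of all genes were called higher and 24.5% lower. The median log2 fold change was 0.94 in controls and 0.96 in mutants, against 0.00 and 0.01 over all genes tested. In all 25 members were called in both comparisons, 23 higher and 2 lower in each. The 2 comparisons share no library, but both take their spread from the same fit of all 8 libraries. They are therefore not independent. The stages were deposited in separate tables, so stage and table cannot be told apart. The gene model length implied by count and RPKM was the same in both for 41 members and differed for Col9a1 (4122 and 3888 bases) and Col6a6 (7471 and 9008 bases). With that length as an offset 28 members were called in controls and 28 in mutants, the same numbers as without it.

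Cell type markers moved between the stages as well. The 6 fibroblast and tendon markers summed to 209 and 137 CPM in E11.5 controls, 165 and 146 CPM in the mutants, 1133 and 931 CPM in E13.5 controls and 643 and 886 CPM in the mutants, and 5 of 6 rose in each genotype (median 2.77 in controls and 2.53 in mutants). Of the 6 smooth muscle markers 5 rose in controls and 6 in mutants, and of the 6 epithelial markers 6 rose in each. Of the 6 endothelial markers 2 fell in controls and 6 in mutants, and 0 rose. Of these calls, those of Krt18, Nkx2-1 and Tie1 in controls (adjusted p up to 0.0605, 0.13 and 0.111) and of Kdr and Postn in mutants (up to 0.0809 and 0.162) were lost in at least 1 fit with a library left out. Of 5 tested chondrocyte markers 2 rose and 1 fell in controls, and 1 rose and 1 fell in mutants. Of 6 skeletal muscle markers 1 rose in controls and 4 in mutants, and of 6 neuron and glia markers 4 rose and 1 fell in controls and 1 rose in mutants. The part of these markers in the stage effects of the collagen genes was not tested.

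The largest fitted increases among the members were those of collagen VI chains, Col6a6 in controls and Col6a3 and Col6a6 in mutants, where these 2 differed by less than their errors. Col6a6 was at 6.08 and 2.57 CPM in E11.5 controls and 108 and 98.5 CPM in E13.5 controls (4.59, SE 0.55, adjusted p = 0.00392), and it rose by 4.14 (SE 0.55) in mutants, with the length difference given above. Col6a3 rose by 3.19 (SE 0.44) in controls and by 4.21 (SE 0.45) in mutants. Col6a1 rose 4.60-fold in controls and 8.10-fold in mutants, and Col6a2 rose 3.91-fold and 8.01-fold. All 4 kept these calls in every fit with a library left out. Col6a5 rose by 1.61 in controls (adjusted p = 0.0173, but 0.0614 and 0.119 without E11.5 control replicates 1 and 2 and 0.101 without E13.5 control replicate 1) and by 2.74 in mutants. Col8a2 rose by 2.51 and 2.19, whereas its partner Col8a1 fell by 1.36 in controls (adjusted p = 0.0183) and stood at 0.70 (adjusted p = 0.119) in mutants. The control value of Col8a1 had adjusted p = 0.0712 and 0.0749 without E11.5 control replicates 1 and 2 and 0.0831 without E13.5 control replicate 2. Col6a4 did not pass in either genotype.

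Of the fibrillar chains 7 of 8 rose in controls and 8 of 8 in mutants. Col1a1 rose by 1.72 (SE 0.11) in controls and 1.52 (SE 0.11) in mutants, which are 3.30-fold and 2.87-fold. Col1a2 rose by 1.39 and 1.09, Col3a1 by 1.28 and 1.11, Col5a2 by 1.11 and 0.80, Col5a1 by 0.92 and 0.80, and Col27a1 by 1.00 and 0.84. These 6 kept their calls in both genotypes whichever library was left out. Col5a3 rose by 1.65 and 1.15, the latter lost without E11.5 mutant replicate 2 (0.111) and E13.5 mutant replicate 2 (0.0821). Col24a1 stood at 0.07 in controls (adjusted p = 0.877) and rose by 0.77 in mutants (adjusted p = 0.0366). That call was lost without either E11.5 control (0.0592 and 0.0601), either E11.5 mutant (0.165 and 0.148) and E13.5 mutant replicate 1 (0.247).

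Of the cartilage chains 4 of 6 rose in each genotype. Col9a3 rose by 2.58 in controls and 2.53 in mutants, Col9a2 by 1.96 and 2.02, Col11a2 by 1.85 and 1.44, and Col11a1 by 1.25 and 1.04. Col9a2 alone of these kept its calls in both genotypes whichever library was left out. In controls the adjusted p without E11.5 control replicate 2 was 0.0565 for Col9a3, 0.0759 for Col11a1 and 0.0759 for Col11a2, and without E13.5 control replicate 2 it was 0.0719 for Col11a1 and 0.0549 for Col11a2; without E13.5 control replicate 1 it was 0.0611 for Col11a1. In mutants it was 0.0642 and 0.062 for Col9a3 without E11.5 mutant replicates 1 and 2, 0.0634 and 0.127 for Col11a1, and 0.156 and 0.122 for Col11a2, and these last 2 genes also missed the threshold without either E13.5 control, with 0.0515 to 0.0582, and Col11a2 without E11.5 control replicate 2 (0.0511). Col2a1 did not pass in either genotype, at 0.09 (adjusted p = 0.842) and -0.28 (adjusted p = 0.492), nor did Col9a1, at 0.76 (adjusted p = 0.185) and -0.20 (adjusted p = 0.72).

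Basement membrane collagens had the lowest medians of the classes between the stages, 0.46 in controls and 0.21 in mutants. Col18a1 fell in both genotypes, from 372 and 395 to 210 and 258 CPM in controls (-0.71, SE 0.12, adjusted p = 0.00197) and from 382 and 364 to 160 and 193 CPM in mutants (-1.08, SE 0.12, adjusted p = 1.7e-04). It kept both calls whichever library was left out. Col4a5 rose by 0.70 and 0.54, and Col4a6 by 0.57 and 0.25. The rise of Col4a6 in mutants was not called by DESeq2 (0.191), limma-voom (0.0569) or a fit that was not robust (0.0601). The Col4a6 value in mutants (adjusted p = 0.0477) was lost in 7 of the 8 fits with a library left out, with adjusted p up to 0.4 without E11.5 mutant replicate 1, and passed without E11.5 mutant replicate 2. Col15a1 rose by 0.43 in controls (adjusted p = 0.0384, lost without E11.5 control replicates 1 and 2, 0.0713 and 0.184, and without E13.5 control replicate 2, 0.143) and stood at 0.17 (adjusted p = 0.353) in mutants. Col4a1 had -0.20 (adjusted p = 0.155) and 0.14 (adjusted p = 0.284), Col4a2 had -0.07 (adjusted p = 0.595) and 0.13 (adjusted p = 0.279), and Col7a1 had 0.50 (adjusted p = 0.315) and 0.68 (adjusted p = 0.169). Col4a4 was rare, at 0.562 to 2.25 CPM, with 0.73 (adjusted p = 0.319) and 1.03 (adjusted p = 0.106).

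Among FACIT and transmembrane collagens, Col16a1 rose by 1.72 and 1.15, Col12a1 by 1.41 and 1.48, Col20a1 by 0.96 and 1.35, and Col13a1 by 0.54 and 0.73. Col12a1 lost its call in controls without any of the 4 control libraries (0.0572 to 0.0766) and in mutants without E13.5 mutant replicate 1 (0.0542). Col22a1 fell by 1.09 in controls (adjusted p = 0.00551) and by 0.68 in mutants (adjusted p = 0.0326). The mutant value had adjusted p = 0.0953 and 0.138 without E11.5 mutant replicates 1 and 2, 0.0523 and 0.0519 without E13.5 control replicates 1 and 2, and 0.209 without E13.5 mutant replicate 2. Col25a1 rose by 1.06 in controls and had 0.36 (adjusted p = 0.0517) in mutants. Col19a1 and Col17a1 rose in mutants, by 3.42 (SE 0.46) and 3.30 (SE 0.57), and stood at 0.50 (adjusted p = 0.378) and 0.66 (adjusted p = 0.416) in controls, and the interaction given above, which tests the same difference, passed for Col19a1 and not for Col17a1 in edgeR, but for Col17a1 (0.0301) and not for Col19a1 (0.0813) in DESeq2. Col14a1 had 0.93 (adjusted p = 0.0632) and 0.72 (adjusted p = 0.11), and Col23a1 had -0.10 (adjusted p = 0.33) and -0.11 (adjusted p = 0.258).

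**Figure D5:**
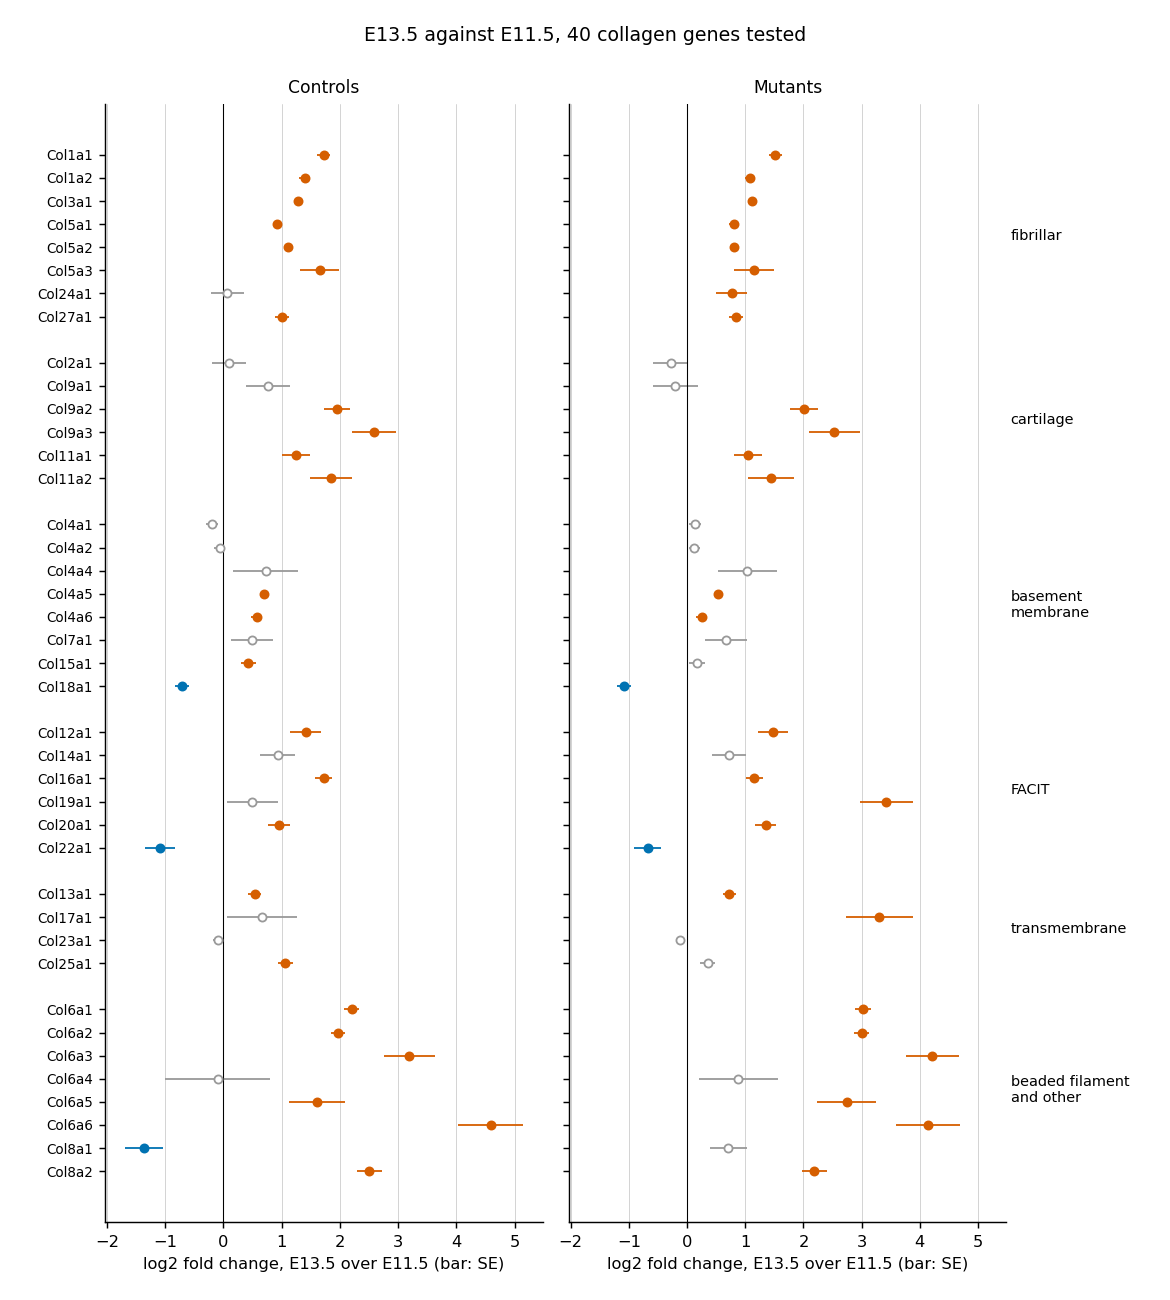
Log2 fold change of E13.5 over E11.5 in controls (left) and mutants (right) for the 40 tested collagen genes by class, from edgeR; bars are standard errors, orange and blue filled points are members called higher and lower at E13.5, and open points did not pass. Most points lie above 0, the collagen VI chain Col6a6 farthest in controls (4.59), and Col18a1 lies below 0 in both panels (-0.71 and -1.08).

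Chains that assemble into the same trimer can be compared through the ratio of their RPKM within a library. These ratios are given without a test. The ratio of Col1a1 to Col1a2 was 1.05 and 1.01 in E11.5 controls, 0.992 and 0.965 in the mutants, 1.29 and 1.29 in E13.5 controls and 1.30 and 1.34 in the mutants. The stages did not overlap, and within a stage the genotypes lay close together without overlap, the mutants lower at E11.5 and higher at E13.5. Col4a1 to Col4a2 was 1.60 and 1.61 in E11.5 controls, 1.54 and 1.58 in the mutants, 1.41 and 1.50 in E13.5 controls and 1.60 and 1.56 in the mutants, in the same order. In the reference annotation these 2 genes share 22 exon bases head to head, 0.295% and 0.332% of their exon lengths. Col6a1 to Col6a2 was 0.822 to 0.902 at E11.5, where the genotypes overlapped, and 1.03 and 1.00 in E13.5 controls against 0.897 and 0.844 in the mutants. Col6a3 to Col6a1 was 0.0944 to 0.168 at E11.5, again with overlap, and 0.257 and 0.267 in E13.5 controls against 0.331 and 0.315 in the mutants. At E13.5 neither of these ratios overlapped between the genotypes.

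Within collagen IX the chains were less even. The ratio of Col9a1 to Col9a2 was 1.25 and 1.62 in E11.5 controls and 1.66 and 1.81 in the mutants, and 0.675 and 0.658 in E13.5 controls against 0.443 and 0.326 in the mutants. The mutants thus lay above the controls at E11.5 and below them at E13.5, with the length of Col9a1 differing between the tables as given above. Col9a3 to Col9a2 was 0.681 and 0.574 in E11.5 controls, 0.382 and 0.467 in the mutants, 1.04 and 0.900 in E13.5 controls and 0.672 and 0.523 in the mutants. At both stages this ratio was lower in each mutant library than in each control library. Col8a1 to Col8a2 was 1.30 and 1.96 in E11.5 controls, 0.656 and 0.477 in the mutants, 0.128 and 0.0865 in E13.5 controls and 0.218 and 0.199 in the mutants.

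Collagen chains need enzymes and chaperones that hydroxylate, glycosylate, fold, trim and crosslink them. Of 35 measured genes of such a list 34 were tested. At E11.5 0 passed in edgeR, with 3 at an unadjusted p under 0.05 (7.54% of all genes) and 0 called by DESeq2 or limma-voom. At E13.5 13 fell (5.81% of all genes), 2 rose (5.97% of all genes) and 19 did not pass, with a median of -0.22 against a median over all genes that rounded to 0. The genes that fell were the lysyl hydroxylase gene Plod1 (-0.40), the prolyl 3-hydroxylase complex genes Lepre1 (-0.28), Leprel2 (-0.26) and Crtap (-0.29), the chaperone genes Serpinh1 (-0.22), Fkbp10 (-0.34) and Fkbp14 (-0.29, with an adjusted p that rounds to 0.05), the glycosyltransferase gene Glt25d1 (-0.25), the propeptide protease gene Bmp1 (-0.37), its enhancers Pcolce (-0.54) and Pcolce2 (-0.95), and the crosslinking enzyme genes Loxl1 (-0.37) and Loxl3 (-0.39). Plod1, Fkbp10 and Bmp1 kept their calls in every alternative run, while the 10 others lost theirs without E13.5 control replicate 1 (adjusted p from 0.0517 to 0.545).

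Pcolce, which speeds removal of the collagen I propeptide, was at 49.5 and 43.8 CPM in E13.5 controls and 29.6 and 34.8 CPM in the mutants. Bmp1 was at 338 and 361 against 280 and 261 CPM. In both genes the mutants lay below the controls. The Bmp1 relative Tll1 went the other way, from 7.49 and 6.09 CPM in controls to 25.9 and 21.4 CPM in mutants (1.80, SE 0.22, adjusted p = 3.57e-04), and kept its call in every alternative run. Its genotype effect differed between the stages (2.44, SE 0.34, adjusted p = 0.0026). The other gene that rose was the crosslinking enzyme gene Loxl4 (1.41, adjusted p = 0.0101). It was rare, at 1.59 and 1.31 CPM in E13.5 controls and 3.33 and 4.45 CPM in the mutants. Loxl4 missed the threshold with DESeq2 (0.111), and when E13.5 control replicate 1, control replicate 2 or mutant replicate 2 was left out. Of the 6 collagen receptor genes Ddr2 rose by 0.54 (adjusted p = 0.0105) and Itga11 by 1.04 (adjusted p = 0.0432) at E13.5, and 0 fell, where 5.97% of all genes were called higher and 5.81% lower. Itga11 lost its call without E13.5 mutant replicate 1 (0.342), in which it was at 12.2 CPM against 6.55 CPM in replicate 2, and in 6 of the 7 other fits with a library left out, and Ddr2 without E13.5 control replicate 1 (0.0839).

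Between the stages 24 of the 34 tested biosynthesis genes rose in controls and 1 fell, where 21.4% of all genes rose and 21% fell, with a median of 0.45 against 0.00 over all genes. In mutants 23 rose and 2 fell, where 23.9% and 24.5% of all genes did, with a median of 0.42 against 0.01. In controls the 24 were P4ha1, P4ha2, P4ha3, P4hb, Plod1, Plod2, Lepre1, Leprel1, Leprel2, Leprel4, Crtap, Ppib, Serpinh1, Fkbp10, Fkbp14, Glt25d1, Bmp1, Adamts2, Adamts14, Lox, Loxl1, Sec23a, Sec24d and Creb3l2, from 0.15 for Glt25d1 to 1.61 for the procollagen protease gene Adamts2. In mutants the same genes rose except P4hb, Serpinh1, Glt25d1 and Adamts14, and Tll1, Loxl4 (1.30) and Glt25d2 (0.96) rose as well. Pcolce fell in both, by 0.55 and 1.03, and Adamts3 fell by 0.60 in mutants. The calls of P4hb, Ppib, Serpinh1, Glt25d1 and Adamts14 in controls, and those of Lepre1, Leprel4, Ppib, Fkbp10, Glt25d2, Adamts3, Loxl4, Sec23a and Creb3l2 in mutants, were lost in at least 1 fit with a library left out, and the others held in all 8 such fits.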

How the data were processed

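Messenger RNA of whole tracheae was measured in 8 libraries. Per the file headers, the authors deposited for each gene and library a raw count with its read density, in 1 table per stage. These deposited values are estimated counts: of a library's nonzero values 76.2% to 82.6% were not whole (tolerance 1e-6). The deposited read density is an RPKM by its values, and it was used for levels and chain ratios. Per the submitters' processing notes the build was mm9 and the tools named were TopHat2 2.0.8, DESeq, Bowtie2 2.1.0 and Cufflinks 2.0.2; their roles and the gene annotation are not given in the sources used here. Per the labels' protocols the kit was Nextera XT, which does not mark strand. Entries without a gene name, with 0.000985% to 0.0253% of the counts per library, were dropped.

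Estimated counts were summed per symbol and rounded; the design had allowed for this. In R 4.3.3, edgeR 4.0.16 kept 14901 genes with filterByExpr, scaled libraries by TMM (used for CPM) and fitted a robust quasi-likelihood model with 1 mean per group to all 8 libraries, with 4 residual degrees of freedom and a common biological coefficient of variation of 7.79%. Adjusted p in the text is Benjamini-Hochberg over all genes tested in this edgeR test unless another tool or fit is named, and a gene was called when it was under 0.05. The edgeR test gives no standard error. Each SE in the text and figures was derived as the absolute log2 fold change divided by the square root of the test's F statistic. The alternatives were DESeq2 size factors, DESeq2 1.42.0, limma-voom (limma 3.58.1), no low-count filter, a fit that was not robust, a replicate block, each library left out, 1 stage alone and gene model length as an offset. On simulated data over 14901 genes, for the E13.5 genotype effect, the test called 85 of 100 genes changed by 1 log2 unit, 94 of 100 changed by 2, and 10 of 14701 unchanged ones. The simulated counts had no stage effects and the same dispersion of a gene in every group. A spread larger in a single group, as for the cartilage collagens in E13.5 mutants, was not simulated, so these rates need not hold for these data.

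Every member called was named, as was every member past 1 log2 unit that was not called, together with the lead chains of each class and the biosynthesis genes called. The members and gene lists were chosen with earlier results of these data known; the intestinal list and the Xist and Ddx3y values were added after the data were seen. Promoter windows are RefSeq sequence, and exon overlaps came from the GENCODE M21 annotation; neither is of the build of the files.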

Additional observations from a re-analysis of the deposited data

Results flagged for a closer look

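The genotype effect of Col6a2 differed between the stages by 1.04 on the log2 scale in the interaction test. Both mutants were below both controls at E11.5 and above them at E13.5. The genotype effect of Col19a1 differed by 2.92 in the same direction, from 3 and 5 counts in the E11.5 mutants. What accounts for either was not tested.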

How the results depend on the processing

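Counts of members called moved with the test and the estimate of the spread. At E11.5 1 was called, against 4 with DESeq2, 5 where the 4 libraries of the stage were fitted alone and 2 with the replicate block. At E13.5 9 were called, against 15 with DESeq2, 19 with limma-voom, 17 with a fit that was not robust and 15 with the replicate block. For the difference between stages 2 were called, against 7, 3, 4 and 8 in the same order. The tools also differed over all 14901 genes tested. At E11.5 edgeR called 11 higher and 43 lower, DESeq2 26 and 64, and limma-voom 3 and 26. At E13.5 edgeR called 889 higher and 866 lower, DESeq2 587 and 644, and limma-voom 858 and 886. For the difference between stages edgeR called 243 and 254, DESeq2 196 and 238, and limma-voom 159 and 194. All-gene counts of the other fits were not tallied. The replicate differences of control and mutant were nearly uncorrelated over genes at either stage (0.045 and 0.0442), and the main fit used no pairing. The labels do not say whether same-numbered libraries share a litter or a preparation. These correlations, from a single replicate difference per group, cannot decide it. With 1 library left out the counts ranged from 0 to 5, from 4 to 19 and from 0 to 5, and from 21 to 31 and 22 to 30 for the stage effects. DESeq2 size factors changed no count, though Col4a6 lost its stage call in mutants (adjusted p rounds to 0.05). Over the 40 tested members and 5 comparisons, 70 of 2959 values under an alternative changed sign, in 41 of 200 results, of which 0 were called; 65 of these came from leaving out a library. The 5 others were Col4a6 at E11.5 with DESeq2 size factors (3.0e-05) and Col5a1 at E11.5 with limma-voom (-0.0047), no low-count filter (-2.7e-04), the replicate block (-0.0034) and the stage alone (-0.0029). With a library left out, each result that changed sign had the following range. For the E11.5 genotype effect it ran from -0.25 to 0.053 for Col11a1, from -0.30 to 0.44 for Col12a1, from -0.12 to 0.31 for Col16a1, from -0.11 to 0.57 for Col20a1, from -0.079 to 0.12 for Col24a1, from -0.23 to 0.022 for Col4a1, from -0.21 to 0.078 for Col4a2, from -0.18 to 0.38 for Col4a4, from -0.012 to 0.032 for Col4a5, from -0.17 to 0.14 for Col4a6, from -0.12 to 0.11 for Col5a1, from -0.24 to 0.36 for Col5a3, from -0.76 to 0.45 for Col6a3 and from -0.69 to 0.80 for Col6a6. For the E13.5 genotype effect it ran from -0.076 to 0.054 for Col13a1, from -0.28 to 1.70 for Col4a4, from -0.41 to 0.87 for Col6a5, from -0.76 to 0.25 for Col7a1 and from -0.028 to 0.0093 for Col8a2. For the difference of genotype effects it ran from -0.52 to 0.042 for Col11a1, from -0.26 to 0.48 for Col12a1, from -0.62 to 0.12 for Col14a1, from -0.10 to 0.79 for Col22a1, from -0.15 to 0.12 for Col23a1, from -0.37 to 0.028 for Col27a1, from -0.36 to 1.62 for Col4a4, from -0.33 to 1.68 for Col6a4, from -1.17 to 0.32 for Col6a6, from -0.40 to 0.61 for Col7a1, from -0.27 to 0.33 for Col9a2 and from -0.61 to 0.36 for Col9a3. For the stage effect in controls it ran from -0.33 to 0.37 for Col24a1, from -0.030 to 0.21 for Col2a1, from -0.16 to 0.011 for Col4a2, from -0.59 to 1.40 for Col4a4 and from -0.68 to 0.59 for Col6a4. For the stage effect in mutants it ran from -0.26 to 0.015 for Col23a1, from -0.75 to 0.075 for Col2a1, from -0.011 to 0.27 for Col4a2, from -0.43 to 1.58 for Col6a4 and from -0.81 to 0.23 for Col9a1. The causes were not tested. With 2 libraries a group, a missed threshold does not show that a gene did not differ, and rare members such as Col4a3, Col10a1, Col28a1 and Col19a1 are limited by depth.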
